A study of Homo sapiens with 8 samples.

Results

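The genes described here were 10 members of the feedback circuit of the mitogen-activated protein kinase (MAPK) pathway: the phosphatase genes DUSP1, DUSP2, DUSP4, DUSP5, DUSP6 and DUSP10, the Sprouty and Spred genes SPRY2, SPRY4 and SPRED2, and the transcription factor gene ETV5. They were chosen by gene symbol from a deposited RNA-seq table of LP-1 cells, a human multiple myeloma line, in which 33312 genes had a value above 0 in at least 1 library and 14732 had a mean of at least 1 RPKM (reads per kilobase of transcript and per mapped library size). All 10 were listed, and 5 of them (DUSP1, DUSP4, DUSP5, SPRED2 and ETV5) reached that mean and were tested. By the prefix of their library IDs (SL or CM), the 8 libraries fell into 2 sets of 4, each with 2 treated and 2 DMSO (solvent) libraries. These sets are called experiments here. DMSO libraries that share a compound's prefix are described as run beside it, although the titles do not state this in words. In one experiment, cells were given 2.5 µM SGC-CBP30, an inhibitor of the bromodomains of the acetyltransferases CBP and EP300. In the other they were given 250 nM CPI203, an inhibitor of the bromodomains of the BET proteins. All libraries were taken at 6 h, and each compound was used at a single dose, so that values with both compounds are a comparison of these treatments and not of matched doses. The replicates are cultures of this 1 line, and the solvent is the only control.

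In this pathway, growth signals pass through RAS, RAF and MEK to the kinase ERK, which enters the nucleus and switches on genes, among them several that shut the signal off again. The dual-specificity phosphatases (DUSPs) remove phosphate from ERK or from the stress kinases p38 and JNK, while Sprouty and Spred proteins act upstream at the level of the receptors, RAS and RAF. ETV5 is an ETS-family transcription factor of the PEA3 group whose transcription is commonly read, with that of DUSP6 and the Sprouty genes, as a sign of ERK activity. Mutations that activate RAS are frequent in multiple myeloma, a cancer of plasma cells.

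The 6 plasma cell markers checked (SDC1, TNFRSF17, XBP1, PRDM1, IRF4 and MZB1) were each at 1 RPKM or more in all libraries. Their summed level was 1160 to 1210 RPKM in DMSO and 853 to 881 RPKM with SGC-CBP30, against 1250 to 1260 RPKM in DMSO and 792 to 804 RPKM with CPI203. The 3 T cell markers summed to at most 0.089 RPKM in the SGC-CBP30 experiment and to between 0.83 and 1.12 RPKM in the CPI203 experiment, with and without compound. The 3 erythroid markers summed to 0.773 to 0.802 RPKM in DMSO and 1.27 to 1.36 RPKM with SGC-CBP30, and to 3.19 to 3.56 RPKM in DMSO and 1.09 to 2.07 RPKM with CPI203. PAX5, MPO and DCN were at 0 in every library. The part of these differences in the results below was not tested. Depth was estimated from the spacing of the low values at 26400000 to 50400000 reads a library, since no totals came with the table. By this estimate the SGC-CBP30 libraries were 1.44 times as deep as their DMSO libraries, and the CPI203 libraries 0.989 times. The 2 experiments' DMSO libraries differed from each other at 1155 genes (7.84% of those tested, limma, adjusted p below 0.05 and at least 1.5-fold), so the controls for a compound were only those run beside it.

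DUSP1 moved in opposite directions with the compounds, lower with SGC-CBP30 and higher with CPI203, while DUSP4 was lower by more than 2-fold with both. DUSP5 and ETV5 were higher with CPI203, and SPRED2 did not pass the test with either compound. With SGC-CBP30, 2 of the 5 tested members were called (limma, Benjamini-Hochberg adjusted p below 0.05 over all genes tested, and at least 1.5-fold), both lower, against 7.26% of all genes in either direction, 3.47% higher and 3.79% lower. With CPI203, 4 of 5 were called, 3 higher and 1 lower, against 27.8% of all genes, 13.4% higher and 14.4% lower. By the adjusted p alone, 3 of 5 passed with SGC-CBP30 and 4 of 5 with CPI203, against 40.4% and 64.2% of all genes. The members were chosen with earlier results of these data known. Their counts beside such shares, here and below, are therefore a description and not a test. In whole cultures, fewer cells of a kind and less RNA per cell cannot be told apart. With 2 libraries against 2, the exact two-sided permutation test cannot go below p = 0.333, so the calls rest on the spread that limma pooled over genes and groups, and they measure the spread between these replicate libraries.

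**Figure D1:**
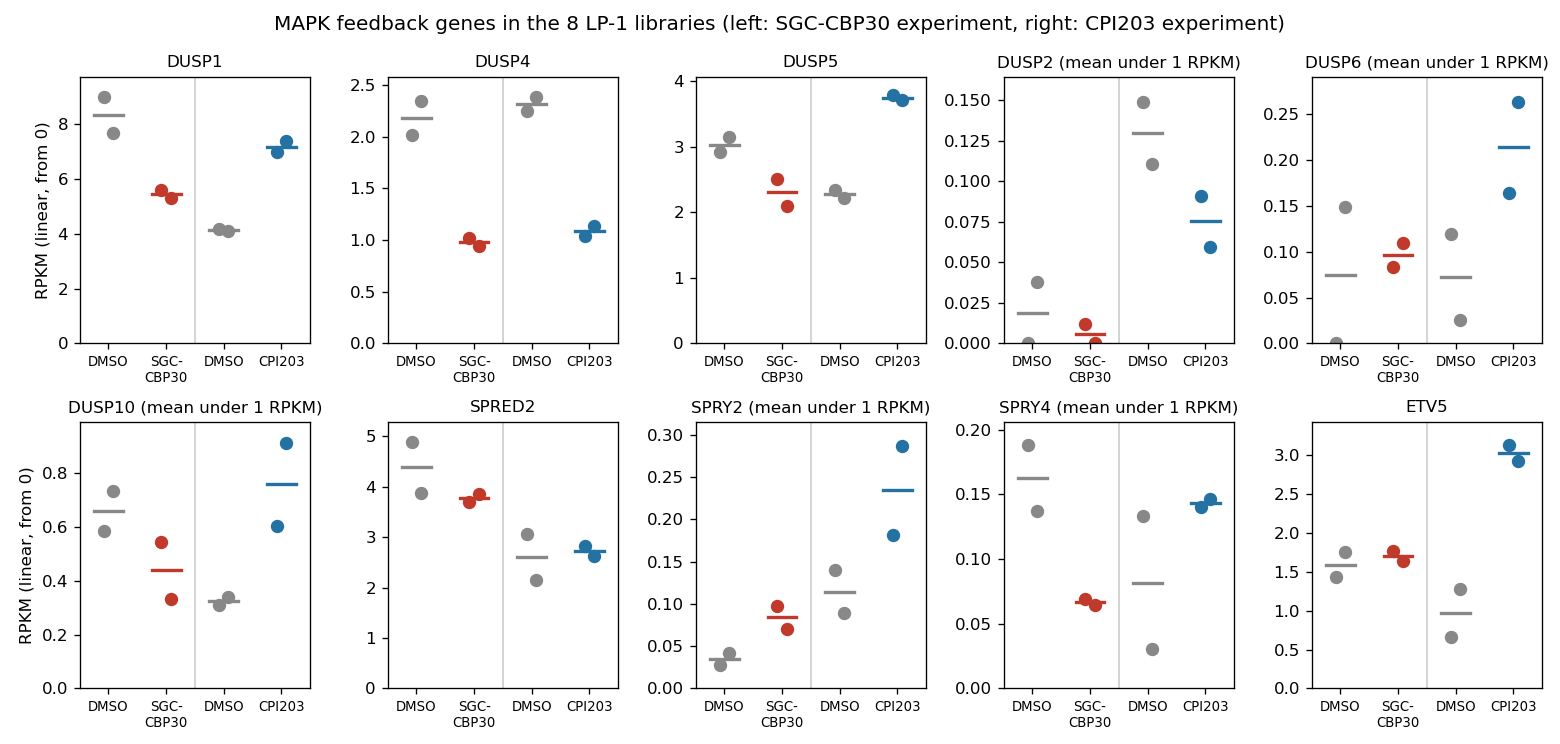
RPKM (linear axis, own scale for each gene) of the 10 MAPK feedback genes in each of the 8 libraries, grouped as DMSO and SGC-CBP30 of one experiment and DMSO and CPI203 of the other, with points for libraries and a bar for the group mean. DUSP4 fell from group means of 2.18 and 2.32 RPKM to 0.984 and 1.09 RPKM with SGC-CBP30 and CPI203, whereas DUSP1 fell with SGC-CBP30 and rose with CPI203 from DMSO levels that differed by 0.496-fold.

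DUSP1 encodes MKP-1, a nuclear phosphatase of p38, JNK and ERK, and lies on chromosome 5 (hg19 chr5:172195092-172198198). Its level in the DMSO libraries run beside SGC-CBP30 was 9.02 and 7.70 RPKM, and with SGC-CBP30 it was 5.61 and 5.30 RPKM. In the CPI203 experiment it was 4.18 and 4.12 RPKM in DMSO and 6.98 and 7.41 RPKM with CPI203. Neither compound's libraries overlapped those of its own DMSO. The means were 8.36 ± 0.933 and 5.45 ± 0.222 RPKM (SD, n = 2 each) without and with SGC-CBP30, a log2 change of -0.60 (SE 0.096, limma adjusted p = 0.00115). For CPI203 they were 4.15 ± 0.0439 and 7.19 ± 0.305 RPKM, a log2 change of 0.78 (SE 0.096, limma adjusted p = 5.85e-05). DUSP1 was thus 1 of 78 genes (0.529% of those tested) called with both compounds in opposite directions.

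The DMSO libraries of the CPI203 experiment held less DUSP1 than those of the SGC-CBP30 experiment, by a log2 difference of -0.99 (limma adjusted p = 5.77e-05). On the RPKM scale, the level with SGC-CBP30 lay above the DMSO level of the CPI203 experiment, and the level with CPI203 lay below the DMSO level of the SGC-CBP30 experiment. When all 4 DMSO libraries served as controls, DUSP1 was called with neither compound, with log2 changes of -0.11 for SGC-CBP30 (limma adjusted p = 0.842) and 0.28 for CPI203 (adjusted p = 0.468). Such a fit takes the offset between the DMSO pairs into the control mean and the spread (SE 0.316 for DUSP1). A call lost there therefore cannot decide whether a gene responded. The SGC-CBP30 call also fell short of 1.5-fold without the first DMSO library of its experiment (log2 change -0.49), without the second SGC-CBP30 library (-0.56) or with a pseudocount of 1 (-0.533).

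For DUSP1 the bases before the annotated start were examined, because its 2 responses had opposite signs. Promoter windows of 250 bases before a RefSeq start (GRCh38.p14) were at hand for 7 of the 10 members, in 11 windows. Among the tested members only DUSP1 and SPRED2 had one, and these are printed on the gene's strand, with the start just after the last base. Capitals mark matches, on either strand, to TGACG or TGACGTCA (the short and full site of CREB, the factor that recruits CBP) and to CACGTG (the E-box bound by MYC and related factors).
DUSP1, GRCh38.p14 chr5:172771196-172771445, minus strand: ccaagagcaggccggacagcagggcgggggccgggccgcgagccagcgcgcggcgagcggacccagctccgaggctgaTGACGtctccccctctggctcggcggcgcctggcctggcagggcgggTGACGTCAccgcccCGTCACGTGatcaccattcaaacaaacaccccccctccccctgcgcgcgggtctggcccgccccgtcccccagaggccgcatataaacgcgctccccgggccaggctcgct
SPRED2, first start, GRCh38.p14 chr2:65432600-65432849, minus strand: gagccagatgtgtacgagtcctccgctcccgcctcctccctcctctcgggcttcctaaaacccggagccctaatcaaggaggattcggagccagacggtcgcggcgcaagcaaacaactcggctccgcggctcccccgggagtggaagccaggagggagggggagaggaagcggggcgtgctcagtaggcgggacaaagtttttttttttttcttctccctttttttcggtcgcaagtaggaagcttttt

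The DUSP1 window held TGACGTCA at bases 125 to 118 before the start, a sequence found in 1.65% of all 35116 windows of this length. It also held TGACG at bases 172 to 168 and, on the other strand, at bases 111 to 107, the second of which overlapped a CACGTG at bases 108 to 103. TGACG was found in 21.2% and CACGTG in 6.34% of all windows. Neither SPRED2 window held any of these letters. Among the low members, TGACG stood at bases 190 to 186 before the first SPRY2 start and 68 to 64 before the SPRY4 start, and CACGTG at 113 to 108 before the DUSP2 start, with no match in the windows of DUSP6 and DUSP10. CCGGAAG (an ETS site, in 8.52% of all windows) and the CArG box of SRF (in 1.16%) were in none of the 11. These are matches of letters and not measurements of binding.

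DUSP4 encodes MKP-2, another nuclear phosphatase of ERK and JNK, and lies on chromosome 8 (hg19 chr8:29190580-29208185). It was at 2.02 and 2.34 RPKM in DMSO and 1.02 and 0.944 RPKM with SGC-CBP30. In the CPI203 experiment it was at 2.25 and 2.38 RPKM in DMSO and 1.04 and 1.14 RPKM with CPI203. All 4 treated libraries were below all 4 DMSO libraries. The mean fell from 2.18 ± 0.228 to 0.984 ± 0.0555 RPKM with SGC-CBP30 (log2 change -1.07, SE 0.162, limma adjusted p = 0.000907) and from 2.32 ± 0.0869 to 1.09 ± 0.0718 RPKM with CPI203 (-1.02, SE 0.162, adjusted p = 0.00034). DUSP4 was 1 of 238 genes (1.62%) called lower with both compounds. It was called with both under all 17 alternative settings, and its DMSO level differed little between the experiments (log2 difference 0.09, 95% interval -0.28 to 0.45). The difference between the compounds' log2 changes was -0.05, with a 95% interval of -0.56 to 0.47, which still leaves room for responses that are not alike.

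DUSP5, a nuclear phosphatase that acts on ERK and not on p38 or JNK, lies on chromosome 10 (hg19 chr10:112257595-112271302). Its level was 2.91 and 3.15 RPKM in DMSO and 2.50 and 2.10 RPKM with SGC-CBP30. It was 2.34 and 2.22 RPKM in the other DMSO libraries and 3.78 and 3.71 RPKM with CPI203. Both SGC-CBP30 libraries were below their DMSO libraries, and both CPI203 libraries were above every other library. The rise with CPI203 was from 2.28 ± 0.0874 to 3.74 ± 0.0533 RPKM (log2 change 0.69, SE 0.127, limma adjusted p = 0.000877). With SGC-CBP30 the means were 3.03 ± 0.174 and 2.30 ± 0.283 RPKM, and the log2 change of -0.39 (SE 0.127, adjusted p = 0.0347) was under 1.5-fold. As for DUSP1, the DMSO level was lower in the CPI203 experiment (log2 difference -0.40, adjusted p = 0.0317), and with all 4 DMSO libraries as controls the CPI203 change of 0.49 (log2) was under 1.5-fold. It was also under 1.5-fold with a pseudocount of 1 (0.534).

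ETV5 had the largest response of the tested members, and only with CPI203. The gene lies on chromosome 3 (hg19 chr3:185764096-185828107). It was at 1.43 and 1.76 RPKM in DMSO and 1.77 and 1.64 RPKM with SGC-CBP30, groups that overlapped. In the CPI203 experiment the DMSO libraries held 0.657 and 1.28 RPKM and the CPI203 libraries 3.14 and 2.93 RPKM, above all 6 others. The means of 0.970 ± 0.444 and 3.04 ± 0.152 RPKM gave a log2 change of 1.62 (SE 0.256, limma adjusted p = 0.000341), and this call held under all 17 alternatives. For SGC-CBP30 the log2 change was 0.10, with a 95% interval of -0.48 to 0.67 (adjusted p = 0.795). ETV5 overlaps DGKG in the deposited gene positions, and whether reads were counted by strand is not given in the sources used here. DGKG went the other way, from 2.01 and 1.93 RPKM in DMSO to 0.649 and 0.793 RPKM with CPI203, and was at 1.90 to 2.02 RPKM in the SGC-CBP30 experiment.

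SPRED2, a membrane protein that works with the RAS inhibitor NF1, lies on chromosome 2 (hg19 chr2:65537984-65659771). It was at 4.89 and 3.88 RPKM in DMSO and 3.70 and 3.86 RPKM with SGC-CBP30. It was at 3.07 and 2.14 RPKM in the other DMSO libraries and 2.82 and 2.63 RPKM with CPI203. The SGC-CBP30 libraries lay just below their DMSO libraries, and the CPI203 libraries lay between theirs. The log2 change was -0.20 with SGC-CBP30 (95% interval -0.59 to 0.19, limma adjusted p = 0.386) and 0.09 with CPI203 (-0.30 to 0.47, adjusted p = 0.688). SPRED2 differed more between the DMSO pairs than with either compound, by a log2 difference of -0.74 (adjusted p = 0.00747).

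**Figure D2:**
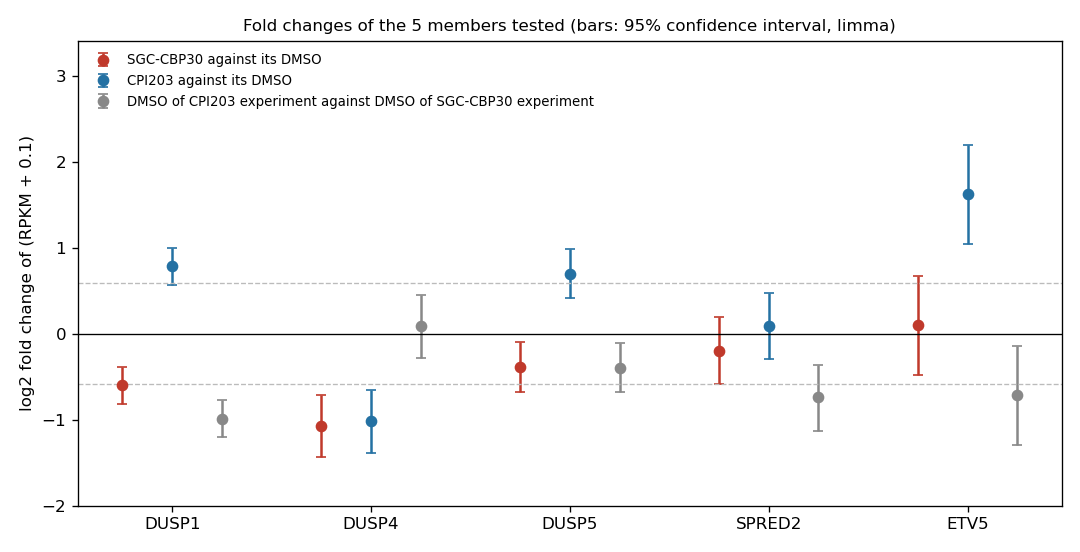
Log2 change in log2(RPKM + 0.1) of the 5 tested members with SGC-CBP30 and with CPI203 against their own DMSO libraries, and between the DMSO pairs, with 95% intervals from limma. DUSP4 lies near -1 with both compounds, DUSP1 lies at -0.60 and 0.78, and ETV5 is near 0 with SGC-CBP30 and at 1.62 with CPI203.

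The remaining 5 members were low in these cells and were not tested. DUSP10, a phosphatase of p38 and JNK on chromosome 1 (hg19 chr1:221874765-221915518), was at 0.586 and 0.732 RPKM in DMSO and 0.544 and 0.333 RPKM with SGC-CBP30. In the CPI203 experiment it was at 0.310 and 0.339 RPKM in DMSO and 0.605 and 0.912 RPKM with CPI203. Its libraries did not overlap in either experiment, lower with SGC-CBP30 and higher with CPI203, and its DMSO level in the CPI203 experiment was 0.492 times that in the other. In a fit without the filter on low values the log2 change with CPI203 was 0.99 (limma adjusted p = 0.058), which did not pass.

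DUSP6, the cytoplasmic phosphatase of ERK on chromosome 12 (hg19 chr12:89741008-89747048), was at 0 and 0.149 RPKM in DMSO and 0.0834 and 0.109 RPKM with SGC-CBP30. It was at 0.119 and 0.0257 RPKM in DMSO and 0.164 and 0.263 RPKM with CPI203. DUSP2, known as PAC-1 and best known from activated lymphocytes, lies on chromosome 2 (hg19 chr2:96808904-96811179) and was at 0.149 RPKM or less in every library, an estimated 0 to 8.5 reads. Both CPI203 libraries held more DUSP6 than their DMSO libraries, at an estimated 20.0 and 35.5 reads against 16.3 and 3.2, and the SGC-CBP30 libraries overlapped theirs. In the fit without the filter on low values the DUSP6 change with CPI203 did not pass (limma adjusted p = 0.298).

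SPRY2 on chromosome 13 (hg19 chr13:80910110-80915086) was at 0.0275 and 0.0417 RPKM in DMSO and 0.0971 and 0.0708 RPKM with SGC-CBP30. It was at 0.140 and 0.0891 RPKM in DMSO and 0.182 and 0.287 RPKM with CPI203, and so lay above DMSO in both experiments, at an estimated 2.8 to 25.4 reads. SPRY4 on chromosome 5 (hg19 chr5:141689991-141706020) was at 0.188 and 0.137 RPKM in DMSO and 0.069 and 0.0648 RPKM with SGC-CBP30, and at 0.133 and 0.0305 RPKM in DMSO and 0.140 and 0.146 RPKM with CPI203. In the fit without the filter, limma called none of the 5 low members with either compound. Of all 33312 genes in that fit, 1249 were called with SGC-CBP30 and 5352 with CPI203.

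Over all 10 members, 6 had both SGC-CBP30 libraries below both DMSO libraries, 1 had them above and 3 overlapped, where 73.1% of all tested genes did not overlap in one direction or the other. With CPI203, 7 lay above, 2 below and 1 overlapped, against 80.8% of tested genes that did not overlap. Those shares cover genes of at least 1 RPKM in both directions together, while 5 of the 10 members were below that level, so the counts are given as a description.

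The members' responses to the compounds were then compared directly, as the SGC-CBP30 log2 change minus the CPI203 log2 change. 3 of the 5 tested members differed, all with the lower value for SGC-CBP30, against 24.5% of all tested genes in either direction, 9.68% in this one and 14.8% in the other. The same 3 passed by the adjusted p alone, as did 50.3% of all genes. The difference was -1.38 for DUSP1 (SE 0.135, limma adjusted p = 2.87e-05), -1.08 for DUSP5 (SE 0.18, adjusted p = 0.000787) and -1.52 for ETV5 (SE 0.362, adjusted p = 0.00629). For SPRED2 it was -0.29 (95% interval -0.83 to 0.26). The ETV5 difference lost its call without the filter on low values (limma adjusted p = 0.0641). With all 4 DMSO libraries as shared controls, DMSO drops out and the SGC-CBP30 libraries are set directly against the CPI203 libraries. That contrast was -0.39 for DUSP1 (limma adjusted p = 0.397), -0.80 for ETV5 (adjusted p = 0.108) and -0.69 for DUSP5 (adjusted p = 0.0188). Any offset between the experiments stays in it, so it is not a difference of responses.

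Between the DMSO pairs, 3 of the 5 tested members were called, all lower in the CPI203 experiment (DUSP1, SPRED2 and ETV5), against 7.84% of all tested genes, 3.91% lower and 3.93% higher. By the adjusted p alone DUSP5 joined them, 4 of 5 against 41.7% of all genes. In the fit without the filter on low values, DUSP2 was called higher in the CPI203 experiment's DMSO libraries (0.97, limma adjusted p = 0.034). It had an estimated 0 to 8.5 reads a library, and 1490 of all 33312 genes were called in that comparison. The ETV5 difference of -0.72 (limma adjusted p = 0.0469) lost its call in 10 of 15 alternatives. The SPRED2 call was lost in 3 of 15, without the filter on low values (adjusted p = 0.0666), without the first DMSO library run beside SGC-CBP30 (adjusted p = 0.06) and without the second run beside CPI203, where its log2 difference of -0.491 was under 1.5-fold. The DMSO libraries run beside CPI203 enter both this comparison and the CPI203 change. Those run beside SGC-CBP30 likewise enter both this comparison and the SGC-CBP30 change. What in the experiments set the DMSO levels apart was not tested.

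Among the 84 other genes of the pathway, 59 were tested. With SGC-CBP30, 7 of them were called, 4 higher and 3 lower, where 7.26% of all tested genes were called. With CPI203, 26 were called, 18 higher and 8 lower, where the share over all genes was 27.8%. Median scaling turned the SGC-CBP30 split to 2 higher and 4 lower. Their median log2 change was 0.04 with SGC-CBP30 and 0.11 with CPI203, beside 0.0704 and -0.015 over all tested genes. The response differed between the compounds at 15 of the 59 (24.5% over all genes), with 10 lower and 5 higher for SGC-CBP30. In the genes nearest the members the directions again varied from gene to gene.

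**Figure D3:**
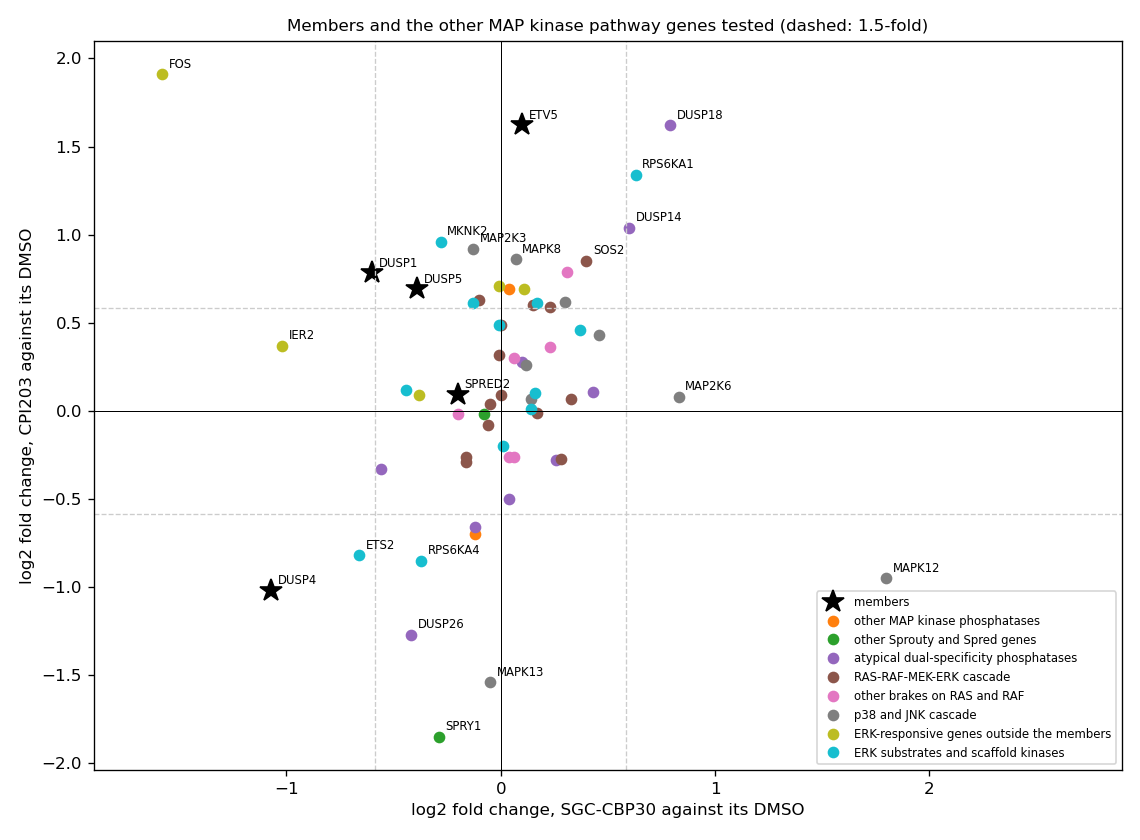
Log2 change with SGC-CBP30 (horizontal) against log2 change with CPI203 (vertical), each against its own DMSO libraries on the log2(RPKM + 0.1) scale, for the 5 tested members and the 59 other tested genes of the pathway lists. FOS and DUSP1 lie at upper left (lower with SGC-CBP30, higher with CPI203), DUSP4 and ETS2 at lower left, and MAPK12 at far right.

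Of the other MAP kinase phosphatases, 2 of 4 were tested, and with SGC-CBP30 neither passed (limma adjusted p = 0.307 for DUSP7 and adjusted p = 0.714 for DUSP16). DUSP16, a phosphatase of JNK and p38, rose 1.62-fold with CPI203 from 8.61 ± 0.607 RPKM (SD, n = 2, log2 change 0.69) and differed between compounds (-0.65), while DUSP7, a cytoplasmic phosphatase of ERK, fell from 10.5 ± 0.741 to 6.41 ± 0.413 RPKM (-0.70).

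SPRY1 was the Sprouty gene expressed at the highest level in these cells. It was 7.21 ± 0.327 and 5.88 ± 0.0732 RPKM without and with SGC-CBP30, which did not pass (log2 change -0.29, limma adjusted p = 0.0628). With CPI203 it fell from 5.25 ± 0.25 to 1.39 ± 0.183 RPKM (-1.85, adjusted p = 4.94e-07), and the difference between compounds was 1.56 (adjusted p = 3.34e-05). Its response to CPI203 was thus opposite in sign to those of DUSP1, DUSP5 and ETV5. Of its list, SPRED1 was tested and not called, and SPRY3 and SPRED3 were under 1 RPKM, as were ETV1 and ETV4, the other PEA3 factors.

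Of the atypical dual-specificity phosphatases, small enzymes that lack the MAPK-binding domain, 9 of 12 were tested. DUSP14 rose with both compounds, from 11.3 ± 0.0339 to 17.2 ± 0.69 RPKM with SGC-CBP30 (log2 change 0.60) and from 11.9 ± 1.07 to 24.4 ± 0.493 RPKM with CPI203 (1.04). The SGC-CBP30 change of DUSP14 was only just past 1.5-fold and fell under it after median scaling (0.52). DUSP18 rose with CPI203 (1.62), and DUSP26 (-1.27) and DUSP23 (-0.66) fell. The SGC-CBP30 log2 change of DUSP26, -0.42, differed from its CPI203 change by 0.85 (limma adjusted p = 0.000192).

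In the cascade that the members restrain, 14 of 16 genes were tested and limma called none with SGC-CBP30, against 7.26% of all tested genes. By the adjusted p alone 4 were higher and 1 lower, beside 3772 higher and 2173 lower among all 14732 genes tested. With CPI203, 4 were called higher and none lower, where 13.4% of all tested genes were called higher and 14.4% lower. Among them MAP2K1, which encodes MEK1, rose from 39.3 ± 0.509 to 59.1 ± 1.11 RPKM (log2 change 0.59), and the RAS exchange factor genes SOS1 (0.63) and SOS2 (0.85) rose too. Of these 3, SOS1 differed between compounds past 1.5-fold (-0.73, limma adjusted p = 0.000406). The CPI203 change of MAP2K1 was only just past 1.5-fold and fell under it after median scaling (0.577). Among the other brakes on RAS and RAF, RASA1, a RAS GTPase-activating protein, rose with CPI203 (0.79), the only call among 6 tested of 10.

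Of the genes downstream of ERK, 5 of 12 were tested, and FOS, an immediate-early gene, had the largest changes. It fell from 2.19 ± 0.514 to 0.656 ± 0.0115 RPKM with SGC-CBP30 (log2 change -1.58, limma adjusted p = 0.000796) and rose from 0.328 ± 0.0162 to 1.51 ± 0.245 RPKM with CPI203 (1.91, adjusted p = 5.73e-05). As with DUSP1, its DMSO level was lower in the CPI203 experiment, here by a log2 difference of -2.40. With all 4 DMSO libraries as controls, a fit that takes in this offset, FOS was called with neither compound (limma adjusted p = 0.765 and 0.455). IER2, also an immediate-early gene, fell with SGC-CBP30 (-1.02) from a DMSO level that again differed between the experiments (log2 difference -0.72), and it differed between compounds (-1.39, adjusted p = 9.48e-05). MCL1, a survival factor of myeloma cells, rose with CPI203 from 198 ± 3.1 to 324 ± 4.67 RPKM (0.71) and was 157 and 156 RPKM without and with SGC-CBP30, a difference between compounds of -0.73. IER3 was called higher with CPI203 (0.69), but it passed the filter on low values only through that group (1.48 ± 0.373 RPKM, against 0.849 to 0.908 RPKM in the other groups) and was not called in the fit without the filter (adjusted p = 0.111). FOS in turn passed it only through the DMSO libraries run beside SGC-CBP30. EGR1, EGR2, EGR3, FOSL1, PHLDA1, CCND1 and EPHA2 had means over the 8 libraries under 1 RPKM.

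Among ERK substrates and the kinases that work with them, 12 of 13 were tested. ETS2, an ETS factor, was called lower with both compounds, by log2 changes of -0.66 with SGC-CBP30 and -0.82 with CPI203. Its DMSO level was lower in the CPI203 experiment (log2 difference -0.95). With all 4 DMSO libraries as controls, a fit that takes in this offset, the SGC-CBP30 change of -0.182 did not pass (limma adjusted p = 0.717). RPS6KA1, which encodes the ERK-activated kinase RSK1, was called higher with both (0.63 and 1.34), the first of which fell under 1.5-fold after median scaling (0.556), and more so with CPI203 (difference -0.71, limma adjusted p = 0.00354). With CPI203, MKNK2 (0.96), RPS6KA5 (0.61) and SRF (0.61) also rose and RPS6KA4 (-0.85) fell. MKNK2 (difference -1.24) and SRF (-0.73) differed between compounds. The DMSO level of SRF was lower in the CPI203 experiment (log2 difference -0.49, limma adjusted p = 0.000716). With all 4 DMSO libraries as controls, which takes in this offset, its CPI203 change of 0.36 did not pass (limma adjusted p = 0.104). With a pseudocount of 1 the CPI203 changes of RPS6KA5 (0.504) and SRF (0.582) were under 1.5-fold.

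In the p38 and JNK cascade, where DUSP1 and DUSP10 act, 9 of 11 genes were tested. MAPK12, a p38 kinase gene, rose with SGC-CBP30 from 0.531 ± 0.144 to 2.08 ± 0.107 RPKM (log2 change 1.80) and fell with CPI203 from 1.90 ± 0.27 to 0.938 ± 0.159 RPKM (-0.95), a mirror of DUSP1 that likewise started from DMSO levels that differed (log2 difference 1.68). It too was called with neither compound when all 4 DMSO libraries were the controls, a fit that takes in this offset (limma adjusted p = 0.262 and 0.877). MAP2K6, a kinase that activates p38, rose with SGC-CBP30 (0.83). With CPI203, MAP2K3 (0.92), MAPK8 (0.86) and MAPK14 (0.62) rose and MAPK13 fell (-1.54). MAP2K3 (difference -1.05), MAPK8 (-0.79), MAP2K6 (0.75), MAPK13 (1.49) and MAPK12 (2.75) differed between the compounds.

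The members did not move as one group across the libraries. With each experiment's mean taken off, the log2 values of DUSP1 and DUSP5 had a Pearson r of 0.94 over the 8 libraries, those of DUSP5 and ETV5 0.75, and those of DUSP1 and DUSP4 -0.11. These points come from 4 groups and are given as a description with no test.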

How the data were processed

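RNA-seq of LP-1 cells was deposited by the authors as a table of RPKM per gene, with a second table of gene symbols and hg19 positions. Per the submitters' processing notes, TopHat 1.4.1, Cufflinks and hg19 were used. The paper describes the treated samples as biological replicates that were set against paired DMSO controls. The main fit here did not pair libraries, and a block by replicate number was an alternative. Groups came from the sample titles, and each compound was set against the DMSO libraries whose library IDs share its prefix. The titles do not state this match in words. The table's 24 columns of other samples were not used, and 27 genes lacking a value in some library were dropped. RPKM keeps no depth, and spacing of the low values placed only 42.1% to 62.4% of them within 0.1 of whole reads, so no count test was run.

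limma 3.58.1 in R 4.3.3 was fitted to log2(RPKM + 0.1), which understates changes of low genes, for the 14732 genes that averaged 1 RPKM or more. The fit held 4 group means and an intensity trend, and p-values were Benjamini-Hochberg adjusted over all genes tested. A gene was called at an adjusted p below 0.05 and at least 1.5-fold. On simulated data for SGC-CBP30 against its DMSO (14732 genes, 200 changed), 91.2% of genes changed by 1 on the log2 scale and 100% of those changed by 2 were recovered, with 6 false calls.

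The members and the pathway lists were chosen with earlier results of these data known. Of the lists (other MAP kinase phosphatases, other Sprouty and Spred genes, other PEA3 ETS factors, atypical phosphatases, the ERK cascade, other brakes, p38 and JNK, ERK-responsive genes, ERK substrates), the genes named are those called with a compound or in the difference between compounds, save for an item that is not reported here. The likeness of 2 genes was Pearson's r over 8 libraries with each experiment's mean taken off. Alternatives changed the pseudocount, filter, scaling, fold threshold, controls, replicate block, fit and libraries.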

Additional observations from a re-analysis of the deposited data

Results flagged for a closer look

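3 members responded differently to the compounds by the test of the difference itself. The SGC-CBP30 log2 change minus the CPI203 log2 change was -1.38 for DUSP1 (limma adjusted p = 2.87e-05), with both SGC-CBP30 libraries below and both CPI203 libraries above their DMSO libraries. It was -1.08 for DUSP5 (adjusted p = 0.000787), with the libraries placed in the same way. It was -1.52 for ETV5 (adjusted p = 0.00629), where the SGC-CBP30 libraries overlapped their DMSO libraries and the CPI203 libraries lay above theirs. Each difference runs across 2 experiments whose DMSO levels of the same genes differed by -0.99, -0.40 and -0.72 on the log2 scale. Each difference is, by construction, this DMSO difference plus the direct contrast of SGC-CBP30 with CPI203 libraries (-0.39, -0.69 and -0.80). The DMSO difference was thus the larger part for DUSP1 and the smaller part for DUSP5 and ETV5. How much of either part was a response to a compound was not tested.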

How the results depend on the processing

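The counts of members called were 2 with SGC-CBP30, 4 with CPI203, 3 for the difference between compounds and 3 between the DMSO pairs, and the pathway lists gave 7 and 26. With a pseudocount of 1 the SGC-CBP30 counts were 1 member (without DUSP1) and 4 pathway genes, and CPI203 called 3 members (without DUSP5). When a mean of 5 RPKM was required, only DUSP1 was tested and it was called in all 4 comparisons (1 member each), with 2 pathway genes for SGC-CBP30. With all 4 DMSO libraries as controls the members called were 1 for SGC-CBP30 and 2 for CPI203, with 3 pathway genes for SGC-CBP30. The comparison of the compounds, from which DMSO then drops out, called 1 member. A 2-fold threshold left 1 and 2 members for the compounds and 0 between the DMSO pairs, with 3 and 7 pathway genes, and no fold threshold gave 27 and 43 pathway genes. Leaving out 1 library at a time gave 1 to 2 members for SGC-CBP30, 4 for CPI203, 3 for the difference and 1 to 2 between the DMSO pairs, and 6 to 8 and 22 to 26 pathway genes.

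SPRED2 changed sign with all 4 DMSO libraries as controls (0.17 with SGC-CBP30, -0.29 with CPI203, and 0.46 for SGC-CBP30 set directly against CPI203). With 1 library left out, signs also changed for SPRED2 with CPI203 (-0.17 to 0.34), ETV5 with SGC-CBP30 (-0.043 to 0.234), and DUSP4 in the difference (-0.15 to 0.054) and between the DMSO pairs (-0.015 to 0.189), none of which was called. The cause was not tested.

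Over all genes, SGC-CBP30 called 1070, against 667 with a pseudocount of 1, 505 at 5 RPKM, 516 with all DMSO libraries, 278 at 2-fold and 5945 with no fold threshold. CPI203 called 4095, against 2590 at 5 RPKM, 1558 at 2-fold and 9459. The difference called 3609, against 2358, 1427 and 7416, and the DMSO pairs 1155, against 518, 423 and 6150. Median scaling moved the share of higher calls with SGC-CBP30 from 47.8% to 32.4%.

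Same-numbered replicates did not deviate together (r = -0.172 and -0.039 over 8298 genes), and the replicate block, like crossed numbers (chosen after seeing the data), left the members at 2, 4, 3 and 3, with 8 and 26 pathway genes under the block.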

Other observations

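Genes whose pattern across the 8 libraries was most like that of a tested member were found among all 14732 genes tested, as a description over points that share 4 groups. For DUSP4 they were TXNDC5 (r = 0.998) and RCN3 (0.997), which encode proteins of the endoplasmic reticulum, and CSK (0.995), a kinase that holds SRC-family kinases inactive. For DUSP1 they were ASL (0.991), FOXO3 (0.99) and XYLT1 (0.989), where FOXO3 encodes a forkhead transcription factor. For ETV5 they were CXorf23 (0.99), SMCR7 (0.988) and ZNF280C (0.985). DUSP5 was most like HSPB1P2 (0.996), ABHD16A (0.992) and HPCAL1 (0.987). SPRED2, which was called with neither compound, had lower values, with RP11-11C20.1 (0.961), PC (0.93) and PMS2P9 (0.929).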
